A study of Mus musculus with 8 samples.

Results

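Rab genes encode the Rab proteins, the largest branch of the Ras-like small GTPases, and were taken here as every gene whose name on the array was Rab followed by a number, with or without a letter and a further digit. The array carried 82 such probes, of 39429 probes that were not controls, and they named 57 Rab genes. Probes had to be marked well above background by the scanner software on both duplicates of 1 group or more, which left 60 probes and 43 Rab genes of the 16159 genes tested. On all 8 arrays 39 of the 43 were well above background. Of the 14 Rab genes left out, 8 were well above background on no array, among them Rab32 and Rab38, which serve melanosomes and related organelles, and Rab20, a Rab of phagosomes.

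A Rab protein is a switch that is loaded with GTP by a guanine nucleotide exchange factor (GEF), turned off by a GTPase-activating protein (GAP) and held in membranes by lipid tails. In its GTP form it recruits effectors, such as tethers and motors, that move and fuse vesicles, and each organelle carries its own set. In macrophages, Rab proteins order the maturation of phagosomes and endosomes and the release of secretory vesicles and lysosomes.

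The cells were C10, a mouse pre-B line derived from HAFTL cells and grown under puromycin, in which a C/EBPα protein is switched on by estradiol and turns the cells towards macrophage-like cells. All 4 groups carried the inducible C/EBPα. Cells with a control shRNA (short hairpin RNA) were sampled at 0 h, uninduced, and after 24 h, and so was a line labelled Tet2 knockdown. The 24 h groups had received 100 nM β-estradiol together with IL-3 and M-CSF at 10 ng/ml each, and the 0 h groups none of these, so the effect of C/EBPα cannot be told apart from that of the cytokines. Each group held 2 one-colour arrays that the submitters call technical duplicates, so a p-value here measures the spread between arrays and not between cultures. The study set the lines side by side to ask what Tet2 does in this conversion.

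Values are log2 of the array signal minus log2 of that array's 75th percentile, and are compared between groups for one probe, never between probes. Array values are given with the replicate on slide 1 first. A change is the difference of group means (n = 2 arrays each) ± the standard error of one limma fit over all 8 arrays, with p adjusted by Benjamini-Hochberg over 16159 genes. A gene was called, and is said to have risen or fallen, where the adjusted p was under 0.05 and the change at least 2-fold. RNA came from bulk cultures, where fewer cells of a type and less RNA per cell cannot be told apart.

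Tet2, the gene named in the label, read -1.23 and -1.36 in control cells and -1.51 and -1.30 in the line labelled Tet2 knockdown at 0 h, and -0.03, 0.01, -0.07 and 0.06 in the same order at 24 h. It differed between the lines by -0.11 ± 0.10 at 0 h (limma adjusted p = 0.53) and 0.01 ± 0.10 at 24 h (adjusted p = 0.98). These values come from the brightest kept Tet2 probe alone, and that probe does not bear out the label. Values of any other Tet2 probe are not given here, and where the shRNA and the probe lie on the transcript was not given. The share of spots well above background was 47.4% to 55.6% per array, and duplicates correlated across genes with r from 0.992 to 0.994. Of the 7 macrophage markers tested, 6 rose in each line, and the log2 of their summed level went from between 2.48 and 2.69 at 0 h to between 9.90 and 10.0 at 24 h. Among 8 pre-B markers, 4 fell in control cells and 3 in the line labelled Tet2 knockdown, and all 8 were still well above background on all arrays. Markers of other cells at 0 arrays well above background included Cd3g, Cd8a, Ncr1, Itga2b, Col1a1 and Col3a1. Cd3e and Lck, of T and NK cells, and Epor, of erythroid cells, were well above background on all 8 arrays and Col1a2, of stroma, on 5. Pf4, a platelet chemokine, was lower in the line labelled Tet2 knockdown at 0 h (-1.32 ± 0.08, adjusted p = 0.0017). Pdgfrb, a stromal marker not well above background at 0 h, was at least 9.87-fold higher at 24 h in control cells and at least 5-fold in the other line. The part of these marker differences in the Rab results was not tested.

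Promoter windows for 39 of the 43 tested Rab genes were found in RefSeq (build GRCm38.p6), each holding the 250 bases before a transcription start. Below are the windows of Rab24, which rose in both lines, of Rab3a, which fell in both, and of the 3 Rab genes with letters of a C/EBP-type site (TTGCNNAA, searched on both strands). Capitals mark those letters and, for Rab43, also GAGGAA on the reverse strand, the core of sites for the myeloid factor PU.1, while Rab24 and Rab3a held no match to either or to the E-box CACGTG. The windows lie at chr13:55321981-55322230 (minus strand), chr8:70754453-70754702 (plus), chr19:5106997-5107246 (minus), chr6:87809758-87810007 (minus) and chr1:131867027-131867276 (plus), and are written 5′ to 3′ on the strand of the gene. Rab3a had 2 windows in the table and Rab43 had 4, of which the one shown is the more upstream for Rab3a and the one with a match for Rab43.
Rab24: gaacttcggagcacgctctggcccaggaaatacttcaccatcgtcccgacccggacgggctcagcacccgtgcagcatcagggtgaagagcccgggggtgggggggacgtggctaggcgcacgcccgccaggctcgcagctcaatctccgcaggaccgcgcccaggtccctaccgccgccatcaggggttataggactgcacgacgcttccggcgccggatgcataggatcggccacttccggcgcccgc
Rab3a: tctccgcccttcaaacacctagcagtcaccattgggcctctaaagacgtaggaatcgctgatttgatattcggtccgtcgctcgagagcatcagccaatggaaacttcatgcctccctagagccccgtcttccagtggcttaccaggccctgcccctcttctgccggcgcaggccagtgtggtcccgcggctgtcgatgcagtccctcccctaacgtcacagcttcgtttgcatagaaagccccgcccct
Rab1b: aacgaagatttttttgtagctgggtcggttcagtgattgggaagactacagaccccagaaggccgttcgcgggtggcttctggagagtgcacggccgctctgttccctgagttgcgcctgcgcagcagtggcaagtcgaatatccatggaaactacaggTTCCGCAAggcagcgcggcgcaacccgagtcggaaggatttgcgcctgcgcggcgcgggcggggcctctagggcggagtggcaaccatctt
Rab43: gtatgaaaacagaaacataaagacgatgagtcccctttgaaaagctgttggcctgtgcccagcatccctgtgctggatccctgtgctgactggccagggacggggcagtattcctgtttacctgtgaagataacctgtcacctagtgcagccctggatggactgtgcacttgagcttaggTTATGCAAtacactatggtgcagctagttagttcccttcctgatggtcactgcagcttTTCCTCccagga
Rab7l1 (Rab29 in RefSeq): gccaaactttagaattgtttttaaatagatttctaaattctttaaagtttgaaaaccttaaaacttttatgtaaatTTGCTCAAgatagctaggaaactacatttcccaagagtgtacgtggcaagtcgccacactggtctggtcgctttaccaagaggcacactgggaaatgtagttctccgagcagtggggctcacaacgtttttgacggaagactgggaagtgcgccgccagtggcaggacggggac

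A C/EBP-type match was present in 3 of the 47 windows of tested Rab genes (6.38%) and in 9.56% of all 32851 windows in the table. GAGGAA was present in 7 Rab windows (14.9%, against 23.3% of all) and CACGTG in 4 (8.51%, against 6.02%). Of the 10 Rab genes that rose in both lines, the 9 other than Rab44 had a window, and these held 0 C/EBP-type matches, 1 GAGGAA and 0 CACGTG. By the probe that stood for the gene, the 3 genes with C/EBP-type letters were each called in 1 line: Rab1b in control cells, Rab43 and Rab7l1 in the line labelled Tet2 knockdown. These counts describe letters in a short window and not binding.

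Induction raised many Rab transcripts in both lines. In control cells 12 of the 43 rose and 2 fell (27.9% and 4.65%), where 14.1% of all genes tested rose and 13.1% fell. In the line labelled Tet2 knockdown 15 rose and 3 fell (34.9% and 6.98%), against 16.7% and 15.4% of all genes. The median change of the Rab genes was 0.64 in control cells and 0.60 in the line labelled Tet2 knockdown, beside medians of 0.00 and 0.14 over all genes. A further 17 and 18 Rab genes had an adjusted p under 0.05 with a change under 2-fold, a p threshold that 61.8% and 68.2% of all genes passed. Centring each array on its median instead moved the all-gene medians to -0.11 in both and the Rab medians to 0.53 and 0.35. In the line labelled Tet2 knockdown it also moved the split of all calls from 2701 higher and 2494 lower to 2172 higher and 3386 lower, with 13 Rab genes higher and 4 lower.

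The lines had no arrays in common, but they shared the slides and the estimate of the spread, so their calls are not independent. Of the Rab genes, 10 rose in both, which is 83.3% of the 12 in control cells and 66.7% of the 15 in the line labelled Tet2 knockdown. Over all genes, 1995 rose in both, 87.3% and 73.9% of those that rose in each, so the Rab shares were not above those of all genes. The 10 were Rab4b, Rab5b, Rab6b, Rab8b, Rab11a, Rab24, Rab31, Rab33b, Rab39 and Rab44. Rab3a fell in both lines, and 0 Rab genes were called in opposite directions. Within each slide taken alone, the 14 calls in control cells and the 18 in the line labelled Tet2 knockdown all kept their direction and at least a 2-fold difference. The calls were made on these same arrays, so this outcome was largely fixed in advance and is not a separate check.

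**Figure D1:**
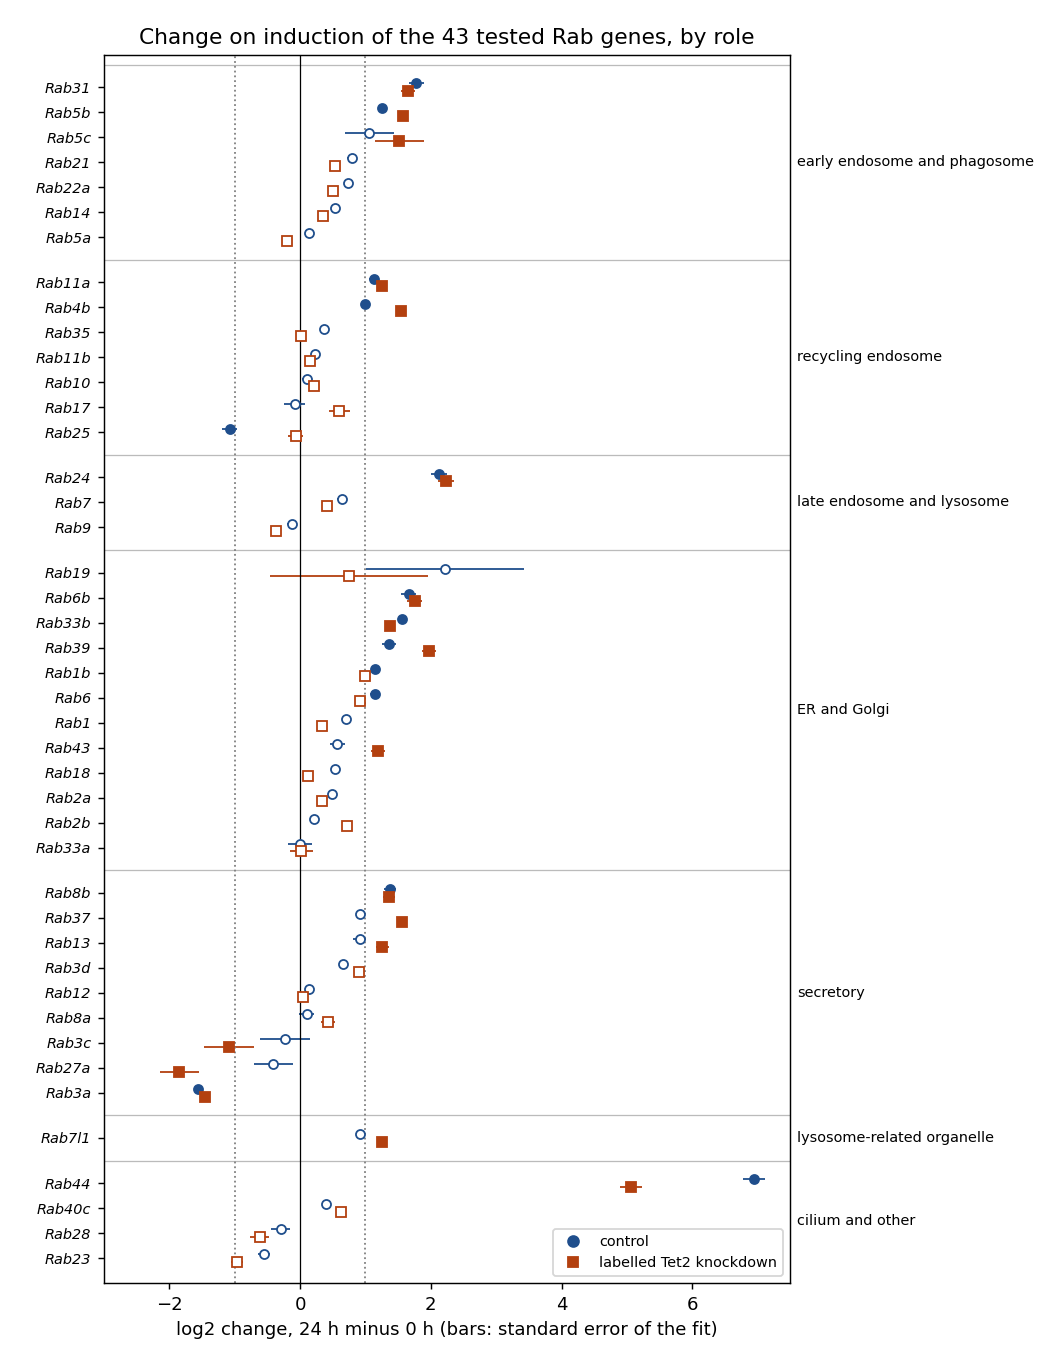
Log2 change from 0 h to 24 h of the 43 tested Rab genes, grouped by role, in control cells (circles) and in the line labelled Tet2 knockdown (squares). Bars are standard errors of the fit, filled symbols are called and dotted lines mark a 2-fold change: filled symbols to the right number 12 in control cells and 15 in the other line, and Rab44 lies far to the right of the rest.

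Among the early endosome and phagosome Rab genes, 2 of 7 tested rose in control cells and 3 of 7 in the line labelled Tet2 knockdown, with medians of 0.79 and 0.53. These are 28.6% and 42.9%, against 14.1% and 16.7% of all genes, and they rest on few genes. Rab31, which carries cargo between the Golgi and endosomes, read 1.55 and 1.41 at 0 h and 3.26 and 3.27 at 24 h in control cells, and 1.60, 1.42, 3.29 and 3.04 in the line labelled Tet2 knockdown. Its 24 h arrays all lay above its 0 h arrays, and it rose by 1.78 ± 0.11 (3.44-fold, limma adjusted p = 5.5e-05) and 1.65 ± 0.11 (3.15-fold, adjusted p = 6.3e-05). Its probe lies at chr17:66001515-66001574 in build mm9.

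Rab5b, one of the 3 Rab5 proteins that drive fusion of early endosomes, read 1.21 and 1.13 at 0 h and 2.45 and 2.39 at 24 h in control cells. The line labelled Tet2 knockdown gave 1.01 and 0.99 and then 2.55 and 2.62. It rose by 1.25 ± 0.06 (2.38-fold) and 1.58 ± 0.06, and the groups of each line did not overlap. Rab5c, the second Rab5 gene, was uneven between duplicates: 4.21 and 3.17 at 0 h and 4.59 and 4.91 at 24 h in control cells, and 3.52, 3.62, 4.78 and 5.41 in the line labelled Tet2 knockdown. It rose in the latter by 1.52 ± 0.38 (limma adjusted p = 0.015), while 1.06 ± 0.38 in control cells missed the threshold (adjusted p = 0.057). That call was lost without the 24 h array of replicate 2 (1.21, adjusted p = 0.075) or without either 0 h array of that line (adjusted p 0.061 and 0.050).

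The third Rab5 gene, Rab5a, differed from these: it changed by 0.13 ± 0.06 in control cells and -0.20 ± 0.06 in the line labelled Tet2 knockdown, neither near 2-fold. Rab21, which escorts integrins through endosomes, Rab22a, of early and recycling endosomes, and Rab14, which links the Golgi and endosomes, stayed under 2-fold at 0.79, 0.74 and 0.54 in control cells and 0.53, 0.51 and 0.35 in the other line. All 6 of these values had an adjusted p under 0.05 in the limma fit.

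Of the recycling endosome Rab genes, 2 of 7 rose in both lines (28.6%, against 14.1% and 16.7% of all genes in each line), which rests on few genes. Rab11a, the main Rab of the slow recycling route, read 2.22 and 2.29 at 0 h and 3.41 and 3.37 at 24 h in control cells, and 2.04, 1.90, 3.24 and 3.19 in the line labelled Tet2 knockdown. The 24 h arrays of each line lay above its 0 h arrays, by 1.13 ± 0.07 (2.20-fold) and 1.25 ± 0.07 (2.37-fold), though with median scaling the latter was 1.00 and just missed 2-fold. Rab4b, of the fast recycling route, read 1.05 and 0.96 and then 2.04 and 1.97 in control cells. In the line labelled Tet2 knockdown it started lower, at 0.61 on both arrays, and reached 2.18 and 2.14. Its change was 1.00 ± 0.06 in control cells, on the threshold itself and called there by a small margin, and 1.55 ± 0.06 in the line labelled Tet2 knockdown. In control cells the call was lost with median scaling (0.89) and without the 0 h array of replicate 2 or the 24 h array of replicate 1 (0.96 each).

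The other recycling genes did not rise. Rab25, a relative of Rab11 known mainly from epithelia, fell in control cells and is described with the differences between the lines. Rab35, Rab11b, Rab10 and Rab17, which serve recycling or polarised transport, changed by between -0.08 and 0.36 in control cells and between 0.01 and 0.60 in the line labelled Tet2 knockdown, and none was called.

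The late endosome and lysosome Rab genes tested were 3, and only Rab24 rose among them. Rab24, an unusual Rab with weak GTPase activity that has been linked to autophagy, read 2.71 and 2.51 at 0 h and 4.81 and 4.66 at 24 h in control cells, and 2.53, 2.31, 4.72 and 4.57 in the line labelled Tet2 knockdown. The 0 h and 24 h arrays were far apart in both lines, and it rose by 2.12 ± 0.12 (4.35-fold, limma adjusted p = 3.5e-05) and 2.23 ± 0.12 (4.68-fold, adjusted p = 2.6e-05). Its probe lies at chr13:55421675-55421734 in build mm9. Rab7, which drives fusion of late endosomes and phagosomes with lysosomes, changed by 0.64 ± 0.08 and 0.41 ± 0.08, and Rab9, of the route from late endosomes to the Golgi, by -0.12 ± 0.08 and -0.37 ± 0.08, all under 2-fold.

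The ER and Golgi Rab genes were the most numerous, with 12 tested. In control cells 5 rose (41.7%, against 14.1% of all genes) and in the line labelled Tet2 knockdown 4 rose (33.3%, against 16.7%). In both lines 0 fell, against 13.1% and 15.4% of all genes, and the medians were 0.92 and 0.83. Rab6b, a form of the Golgi protein Rab6 best known from neurons, read -2.48 on both 0 h arrays and -0.85 and -0.80 at 24 h in control cells. Values in the line labelled Tet2 knockdown were -2.06 and -2.01 and then -0.43 and -0.13. It rose by 1.66 ± 0.11 (3.15-fold) and 1.75 ± 0.11 (3.37-fold), with the 24 h arrays apart from the 0 h arrays in each line.

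Rab39 is counted here with the ER and Golgi genes, though it is also a Rab of phagosome acidification. It read -4.07 and -3.81 and then -2.61 and -2.56 in control cells, and -4.77, -4.81, -2.92 and -2.73 in the line labelled Tet2 knockdown. It rose by 1.36 ± 0.11 (2.57-fold) and 1.97 ± 0.11 (3.91-fold) without overlap, but with normexp background correction, and in the authors' deposited table, the changes were 0.76 and 0.89, under 2-fold. Rab33b, a Golgi Rab that binds the autophagy protein Atg16l1, read -1.15 and -1.10 and then 0.41 and 0.45 in control cells, and -0.67, -0.51, 0.77 and 0.82 in the line labelled Tet2 knockdown. Its 24 h arrays stood above its 0 h arrays by 1.56 ± 0.07 (2.95-fold) and 1.38 ± 0.07 (2.61-fold).

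Rab6, listed as Rab6a in RefSeq and the main Rab of traffic back through the Golgi, read 2.75 and 2.59 and then 3.80 and 3.82 in control cells, and 2.77, 2.72, 3.63 and 3.68 in the line labelled Tet2 knockdown. Rab1b, which moves cargo from the ER to the Golgi, read 2.81 and 2.91 and then 4.03 and 4 in control cells, and 2.94, 3.02, 3.92 and 4.04 in the other line. Both rose in control cells, Rab6 by 1.14 ± 0.07 and Rab1b by 1.15 ± 0.07, and neither was called in the line labelled Tet2 knockdown at 0.91 ± 0.07 and 1.00 ± 0.07, the latter just under 2-fold before rounding. Their 0 h and 24 h arrays did not overlap in either line.

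Rab43, of the Golgi, read 4.43 and 4.16 and then 4.92 and 4.82 in control cells. In the line labelled Tet2 knockdown it started lower, at 3.92 and 3.82, and reached 5.07 and 5.04, a rise of 1.19 ± 0.11 (2.28-fold), against 0.57 ± 0.11 in control cells. With median scaling the rise was 0.94 and not called. The second kept Rab43 probe, well above background on all 8 arrays, changed by 0.44 in control cells and 0.84 in the other line, both under 2-fold. Rab1, Rab2a, Rab2b and Rab18, which act between ER, Golgi and lipid droplets, were under 2-fold at 0.22 to 0.70 in control cells and 0.12 to 0.71 in the other line, and Rab33a, a dim relative of Rab33b, was at 0.00 and 0.02. Rab19 was too uneven to read: at 0 h it stood at -2.05 and -6.01 on the duplicates of the line labelled Tet2 knockdown, and in control cells it was well above background on 0 of 2 arrays at 0 h and at least 3.80-fold higher at 24 h (limma adjusted p = 0.17).

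Of 9 secretory Rab genes, 1 rose and 1 fell in control cells (11.1% each, near the 14.1% and 13.1% of all genes). In the other line 3 rose and 3 fell (33.3% each, against 16.7% and 15.4%). Rab3a, which readies synaptic and other vesicles for release, read 2.30 and 2.28 at 0 h and 0.75 and 0.72 at 24 h in control cells, and 2.35, 2.42, 0.91 and 0.96 in the line labelled Tet2 knockdown. Its 24 h arrays lay below its 0 h arrays everywhere, with changes of -1.56 ± 0.06 (2.94-fold lower, limma adjusted p = 7.8e-06) and -1.45 ± 0.06 (2.73-fold lower, adjusted p = 8.4e-06). The probe is at chr8:73282447-73282506 in build mm9. Rab3d, a relative found on secretory granules, went the other way and stayed under 2-fold, at 0.66 ± 0.07 and 0.90 ± 0.07.

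Rab27a, which docks secretory lysosomes and exosomes, read -2.64 and -2.82 and then -3.41 and -2.87 in control cells, and -2.06, -2.84, -4.40 and -4.19 in the line labelled Tet2 knockdown. It fell in that line, by 1.85 ± 0.30 (3.60-fold lower, limma adjusted p = 0.0026), where 1 of the 2 arrays at 24 h was well above background, and its change in control cells was -0.41 ± 0.30 (adjusted p = 0.29). With normexp correction the fall was smaller, a change of -1.15, and still called. Rab3c, the third Rab3 gene tested, read -0.82 and -0.02 and then -0.89 and -0.43 in control cells, and -0.35, 0.23, -1.44 and -0.85 in the line labelled Tet2 knockdown. In all 4 groups the slide 2 array was the higher of the pair. It fell in the line labelled Tet2 knockdown by 1.09 ± 0.38 (adjusted p = 0.045), or with the slide as a block at adjusted p = 4e-04, and its change in control cells was -0.23 ± 0.38. The unblocked call was lost in 6 of the 8 fits that left out an array, with changes from -0.80 to -1.39, and with normexp correction (adjusted p = 0.052).

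Rab8b, of transport from the Golgi to the cell surface, read 2.38 and 2.16 and then 3.64 and 3.65 in control cells, and 2.17, 2.05, 3.46 and 3.49 in the line labelled Tet2 knockdown. It rose by 1.38 ± 0.09 (2.60-fold) and 1.36 ± 0.09 (2.57-fold), clear of the 0 h arrays, while its close relative Rab8a changed by 0.10 ± 0.11 and 0.43 ± 0.11 and was not called. Rab37, a Rab of granule and cytokine secretion, read -0.76 and -0.79 and then 0.13 on both arrays in control cells, and -1.65, -1.60, -0.05 and -0.09 in the line labelled Tet2 knockdown. It rose in the latter by 1.56 ± 0.05 (2.95-fold), and 0.91 ± 0.05 in control cells was under 2-fold. Rab13, known from cell junctions, read -2.83 and -2.95 and then -1.92 and -2.04 in control cells, and -3.25, -3.05, -1.82 and -1.97 in the line labelled Tet2 knockdown. It rose there by 1.26 ± 0.10, with 0.91 ± 0.10 in control cells, and with normexp correction the rise was 0.82 and not called. Rab12, counted here as secretory though it also serves lysosome and recycling traffic, changed by 0.13 and 0.04.

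Rab7l1, listed as Rab29 in RefSeq and known as a partner of the kinase Lrrk2, was the 1 tested gene of the 3 grouped with lysosome-related organelles. It read 3.35 and 3.25 and then 4.27 and 4.18 in control cells, and 3.22, 3.17, 4.47 and 4.43 in the line labelled Tet2 knockdown. The arrays of the times did not overlap, and it rose in the line labelled Tet2 knockdown by 1.26 ± 0.07 (2.39-fold), with 0.92 ± 0.07 in control cells under 2-fold. Among the remaining genes, Rab23, of the primary cilium, changed by -0.55 ± 0.09 and -0.97 ± 0.09, Rab28 by -0.30 and -0.62 and Rab40c, a Rab with a SOCS box, by 0.39 and 0.62, and none was called.

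**Figure D2:**
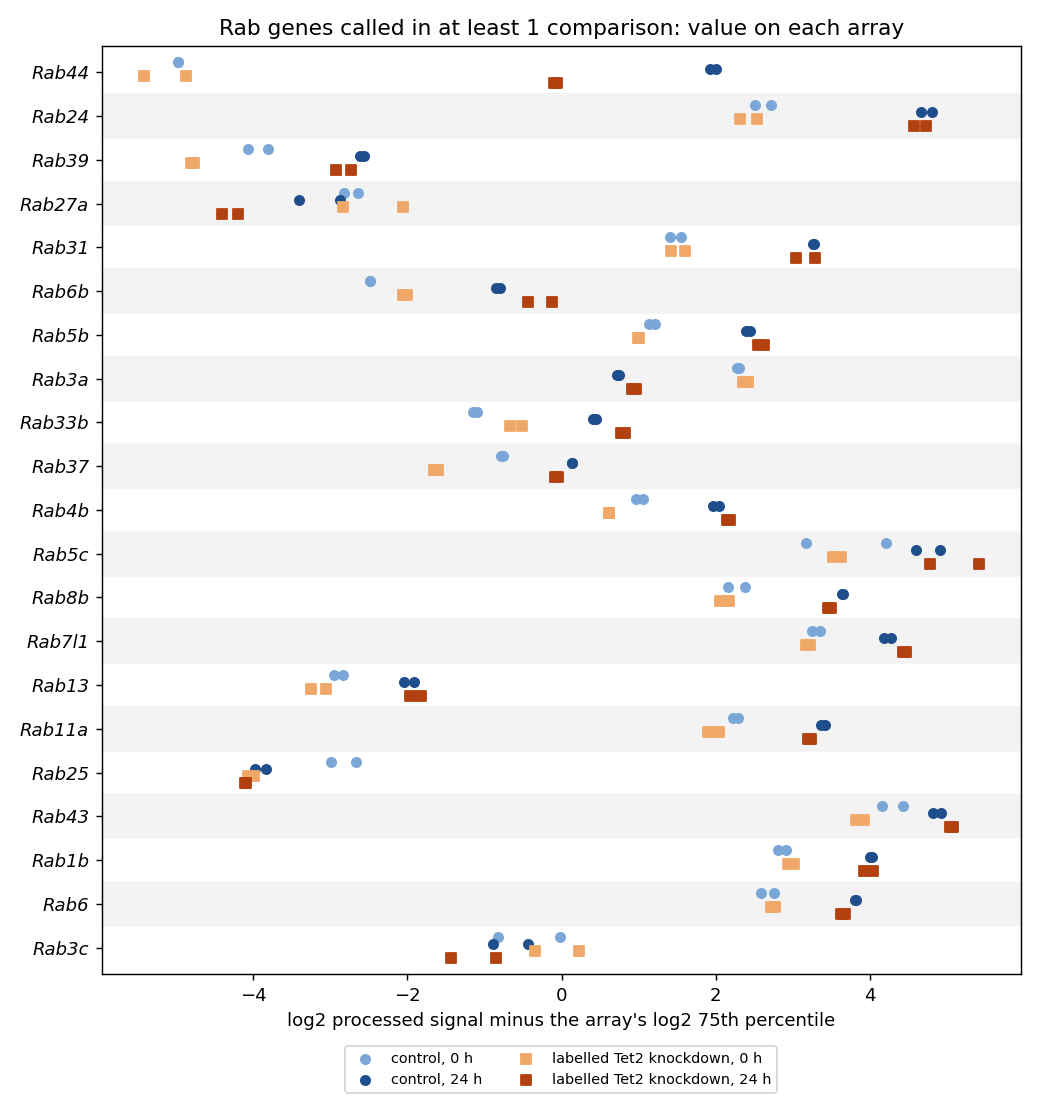
Normalised log2 signal on each of the 8 arrays for the 21 Rab genes called in at least 1 comparison (circles, control; squares, line labelled Tet2 knockdown; light, 0 h; dark, 24 h). Dark symbols lie right of light ones for most genes and left of them in both lines for Rab3a. They also lie left for the called falls of Rab27a and Rab3c in the line labelled Tet2 knockdown and of Rab25 in control cells. Levels are comparable within a gene only.

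The largest change among the tested Rab genes was that of Rab44. Rab44 is an atypical large Rab with calcium-binding EF-hands, studied in mast cell degranulation and osteoclasts, and its probe lies at chr17:29285831-29285890 in build mm9. In control cells it read -4.98 on both arrays at 0 h and 2.00 and 1.92 at 24 h, a rise of 6.94 ± 0.17 (123-fold, limma adjusted p = 2.6e-06). In the line labelled Tet2 knockdown it read -5.42 and -4.87 at 0 h and -0.06 and -0.10 at 24 h, a rise of 5.06 ± 0.17 (33.5-fold, adjusted p = 5.5e-06). At 0 h it was near the detection limit, well above background on 1 of 2 arrays in each line, so the size of both rises depends on dim values. With normexp background correction, and in the authors' deposited table, the rises were 5.19 and 3.26, with the call kept in both lines.

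Rab44 was also the 1 Rab gene called between the lines at 24 h, where 0.996% of all genes were lower and 1.05% higher in the line labelled Tet2 knockdown. A further 3 Rab genes passed the p threshold alone, as did 13.8% of all genes. It was 4.13-fold lower in the line labelled Tet2 knockdown (-2.04 ± 0.17, limma adjusted p = 0.0035), with both arrays of each line well above background and no overlap. At 0 h the lines differed by -0.17 ± 0.17 (adjusted p = 0.59). The difference between the inductions was -1.88 ± 0.25 (95% interval -2.49 to -1.26, adjusted p = 0.012), where 2.36% of all genes were called higher and 1.46% lower, and without a filter on dim probes its adjusted p was 0.083.

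Rab25 was the 1 Rab gene called between the lines at 0 h, where 1.4% of all genes were lower and 0.334% higher in the line labelled Tet2 knockdown. The p threshold alone was passed by 6 further Rab genes and by 13.5% of all genes. It read -2.67 and -2.99 in control cells and -4.07 and -3.99 in the line labelled Tet2 knockdown at 0 h, and -3.83, -3.98, -4.10 and -4.09 at 24 h. The control cells at 0 h stood above the other 3 groups, which lay close together. Rab25 was well above background on all 8 arrays, but its signal was low. How far the low signal drew those groups together was not tested. It was 2.29-fold lower in the line labelled Tet2 knockdown at 0 h (-1.20 ± 0.12, limma adjusted p = 0.0050), and it fell in control cells by 1.08 ± 0.12 (adjusted p = 5.3e-04) against -0.07 ± 0.12 (adjusted p = 0.65) in the line labelled Tet2 knockdown. The fall in control cells was not called without the 0 h array of replicate 1 (-0.92) or with normexp correction and in the authors' deposited table (-0.67). These comparisons share the control arrays at 0 h and are not separate evidence.

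The difference between the inductions of Rab25 was 1.01 ± 0.17 (95% interval 0.59 to 1.43, limma adjusted p = 0.019), just past 2-fold. It was not called in 7 of the 8 fits that left out an array (0.86 to 1.09), and with normexp correction it was 0.54 (adjusted p = 0.088). At 0 h the difference was -0.67 with normexp correction and -1.12 (adjusted p = 0.065) with median scaling, so neither was called. Pf4, a platelet marker, was lower at 0 h in the same line (-1.32). So was Tyrobp (-1.02), the 1 of 7 macrophage markers called, in a list whose median difference was 0.10. The part of these markers in the result was not tested.

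**Figure D3:**
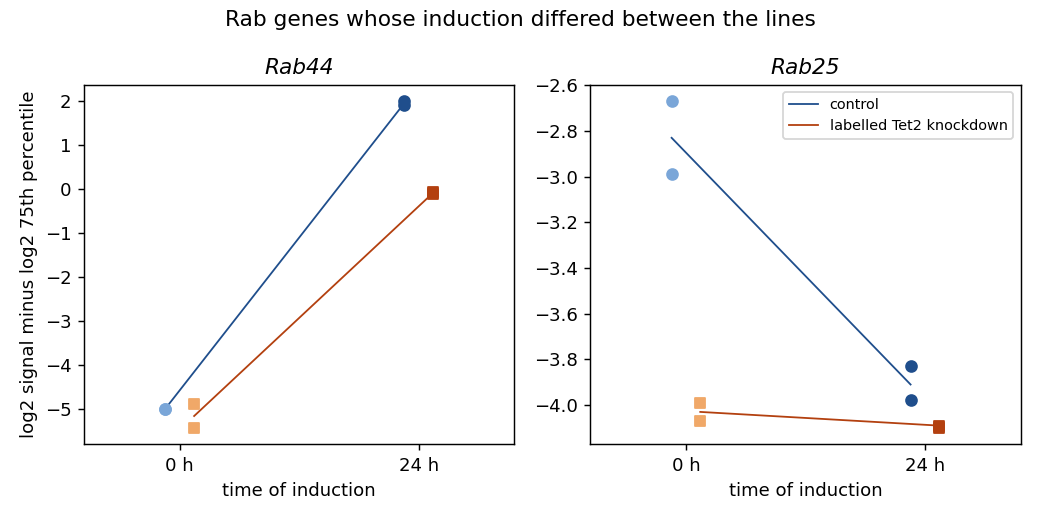
Normalised log2 signal of Rab44 and Rab25 on each array by time of induction, in control cells (circles) and in the line labelled Tet2 knockdown (squares), with lines through the group means. Rab44 reached 2.00 and 1.92 in control cells and -0.06 and -0.10 in the other line at 24 h, and Rab25 was set apart by the control arrays at 0 h.

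The other Rab genes called in 1 line had no called difference between the lines. For Rab6, Rab1b, Rab7l1, Rab13, Rab5c, Rab3c and Rab27a the difference between the inductions missed the p threshold. The nearest were Rab7l1 (0.33, limma adjusted p = 0.067) and Rab27a (-1.44 ± 0.43, adjusted p = 0.078). With the slide as a block, 14 Rab genes passed the p threshold in this comparison, and 12 of them stayed under 2-fold, among them Rab7l1 (0.33, adjusted p = 0.024) and Rab3c (-0.86, adjusted p = 0.016). For Rab37 (0.65 ± 0.08, limma adjusted p = 0.0091), Rab4b (0.55 ± 0.09, adjusted p = 0.017), Rab43 (0.61 ± 0.15, adjusted p = 0.048), Rab2b (0.50 ± 0.10, adjusted p = 0.030), Rab18 (-0.41 ± 0.09) and Rab1 (-0.36 ± 0.08) it passed the p threshold and stayed under 2-fold, 6 genes in all, where 16.3% of all genes passed that threshold. At the second kept Rab43 probe the difference was 0.4 and missed the p threshold (limma adjusted p = 0.19). For Rab37 and Rab4b the gap lay mainly at 0 h, where the line labelled Tet2 knockdown was lower (-0.85 and -0.40).

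Several Rab genes had more than 1 kept probe, 14 in all, and not all probes of a gene moved alike. No kept Rab probe shared a run of 20 or more bases with a probe named for another gene. The second Rab33b probe, dim and well above background on 5 of 8 arrays, changed by -0.06 and -0.48 where the probe used above rose by 1.56 and 1.38, and with the probes averaged Rab33b was not called (0.75 and 0.45). The 4 Rab5b probes changed by 0.54 to 1.25 in control cells and by 1.34 to 1.94 in the line labelled Tet2 knockdown, and averaged they gave 0.92 in control cells, not called. A dim one of them, well above background on all 8 arrays and singled out after its values were seen, differed between the inductions by 1.4 (limma adjusted p = 0.010), past 2-fold, where the probe used above gave 0.33. At the dim probe the lines differed by -0.76 at 0 h and 0.64 at 24 h, under 2-fold. Rab6 showed the opposite pattern: its dimmer probe passed 2-fold in both lines, at 1.55 and 1.33. The second Rab8b probe, well above background on all 8 arrays, changed by 1.39 in control cells and by 0.92, under 2-fold, in the other line. At that probe the inductions differed by -0.47 (limma adjusted p = 0.019) and the lines at 24 h by -0.46 (adjusted p = 0.0082), both under 2-fold. The Rab8b probe used above gave -0.02 and -0.17. The paired probes of Rab7l1 gave 0.92 and 1.04 in control cells and 1.26 and 1.28 in the other line. In control cells the second of them thus passed 2-fold (limma adjusted p = 5.1e-05), where the probe used above did not. The kept probes of Rab37 and of Rab3c lay as close together, but each pair covers nearly the same bases, so this is not a separate check. A further Rab3c probe at another site was well above background on 0 arrays.

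**Figure D4:**
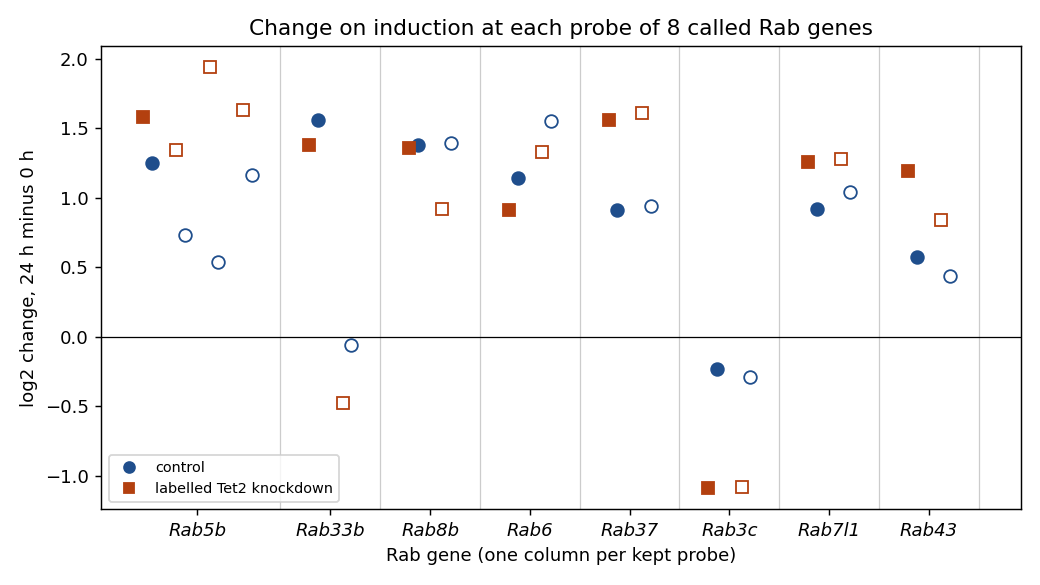
Log2 change from 0 h to 24 h at each kept probe of 8 called Rab genes, in control cells (circles) and in the line labelled Tet2 knockdown (squares), with filled symbols for the probe that stood for the gene. The second Rab33b probe lies below 0 while the first lies at 1.56 and 1.38.

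Of 133 listed regulators and effectors of Rab proteins, 112 were tested. In control cells 16 rose and 8 fell, with a median of 0.21, and in the line labelled Tet2 knockdown 16 rose and 4 fell, with a median of 0.38, beside the all-gene medians of 0.00 and 0.14. The share that rose was 14.3% in each line, against 14.1% and 16.7% of all genes, and the share that fell was 7.14% and 3.57%, against 13.1% and 15.4%. Among GEFs, which load Rab proteins with GTP, 7 of 29 rose and 1 fell in control cells, and 8 rose and 0 fell in the line labelled Tet2 knockdown. These are 24.1% and 3.45% in control cells and 27.6% and 0% in the other line. Over all genes the shares were 14.1% and 13.1%, and 16.7% and 15.4%. Rin2, a GEF for Rab5, rose by 5.61 ± 0.24 and 5.88 ± 0.24, and Rab3il1, a GEF for Rab8, by 2.74 ± 0.14 and 3.71 ± 0.14. Dennd1c, a GEF for Rab35, rose by 1.64 ± 0.07 and 2.28 ± 0.07, and Madd, a GEF for Rab3 proteins, by 1.34 ± 0.06 and 1.35 ± 0.06.

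Of the TBC domain GAPs, which switch Rab proteins off, 3 of 31 rose and 4 fell in control cells, and 4 rose and 2 fell in the line labelled Tet2 knockdown, with medians of 0.02 and 0.29. These are 9.68% and 12.9% in control cells and 12.9% and 6.45% in the other line, near or below the shares of all genes. Tbc1d9, not well above background at 0 h, was at least 10.6-fold higher at 24 h in control cells (limma adjusted p = 0.0025) and at least 6.04-fold in the other line (adjusted p = 0.0017). Evi5l rose by 1.67 ± 0.06 and 1.75 ± 0.06 and Evi5, a GAP for Rab11, by 1.47 ± 0.07 and 1.18 ± 0.07. Usp6nl, a GAP for Rab5, fell, with changes of -1.08 ± 0.10 and -1.27 ± 0.10. Neither Rab3 GAP subunit was called.

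Effectors were called one by one. Of 16 early endosome and recycling effectors, 12.5% rose in control cells and 6.25% in the line labelled Tet2 knockdown. Of 15 late endosome and lysosome effectors 6.67% and 13.3% rose, and of 5 secretory vesicle effectors 20% and 0%. Over all genes 14.1% and 16.7% rose. Rab11fip5, an effector of Rab11, rose by 3.19 ± 0.10 and 4.75 ± 0.10, and at 0 h it was lower in the line labelled Tet2 knockdown (-2.22 ± 0.10, limma adjusted p = 9.9e-04). Eea1, the tether that Rab5 recruits to early endosomes, rose in control cells by 1.38 ± 0.08 and changed by 0.62 ± 0.08 in the other line, a difference of -0.76 ± 0.11 that stayed under 2-fold. Rph3al, an effector of Rab3 and Rab27, fell together with Rab3a, with changes of -1.67 ± 0.14 and -1.83 ± 0.14. Rilpl1, a relative of the Rab7 effector Rilp, rose by 1.30 ± 0.07 in the line labelled Tet2 knockdown against -0.08 ± 0.07 in control cells, and Osbpl1a, an effector of Rab7, fell in both, at -1.46 ± 0.26 and -1.92 ± 0.26. Myo5a, the motor that carries Rab27a vesicles, rose in control cells by 1.22 ± 0.07, and at 0 h it was higher in the line labelled Tet2 knockdown by 1.51 ± 0.07. Rabac1, which helps Rab proteins reach membranes, was the 1 of 8 prenylation and delivery genes to rise, by 1.02 ± 0.10 and 1.59 ± 0.10, and among 6 Golgi effectors Uso1, a tether recruited by Rab1, rose in control cells by 1.25 ± 0.09. Mical3 fell there (-1.27 ± 0.30, adjusted p = 0.013), to a level not well above background at 24 h.

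**Figure D5:**
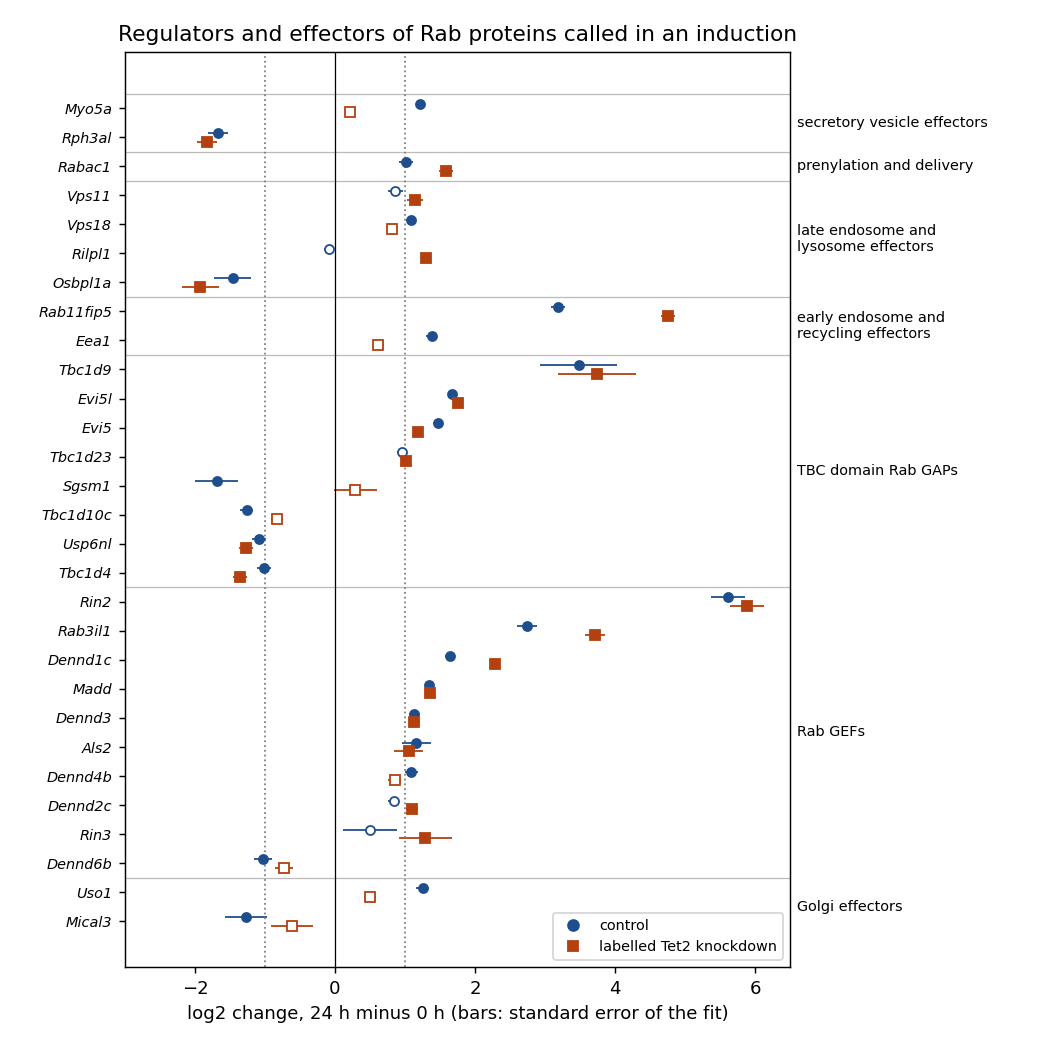
Log2 change from 0 h to 24 h of the regulators and effectors of Rab proteins called in at least 1 induction, with standard errors, in control cells (circles) and in the line labelled Tet2 knockdown (squares), filled where called. Rin2 lies farthest to the right at 5.61 and 5.88, and values of Tbc1d9, Sgsm1 and Mical3 include a group not well above background.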

How the data were processed

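The deposited scanner files give each spot's intensity, background-subtracted per the file headers by Feature Extraction 10.7.3.1 (design 026655, build mm9); the deposited value table holds log2 values and, per the submitters' processing notes, limma was used. Here log2 of the processed intensity minus the array's 75th percentile was analysed; 155 to 219 outlier spots per array were left out, spots of a probe averaged, and the brightest kept probe used per gene. limma 3.58.1 (R 4.3.3, data.table version 1.17.8) fitted 4 group means to 8 arrays (4 residual and 1.51 prior degrees of freedom, 2-sided). Gene names came from RefSeq by accession (11624 genes), symbol (580) or synonym (89), and 3866 kept the file's name. The fit was tested on simulated data. The Rab members, lists and tests were chosen with earlier results of these data known; Rab genes called in any comparison have every array value given. Replicate numbers match slides, and same-numbered arrays deviate together (r 0.30 to 0.41 in all 6 pairs), so the number was also fitted as a block. The number of arrays limits the precision. Alternatives covered background, scaling, filters, probes, fold, block and left-out arrays. The deposited table correlated with the normexp values at r = 1 on every array. These alternatives are thus a single check, though the tallies below count each.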

Additional observations from a re-analysis of the deposited data

Results flagged for a closer look

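Rab44 differed between the lines in its induction by the test of the difference itself: the rise was smaller in the line labelled Tet2 knockdown by -1.88 on the log2 scale (limma adjusted p = 0.012). Rab25 differed in the same test by 1.01 (adjusted p = 0.019), because it fell in control cells and changed by -0.07 in the line labelled Tet2 knockdown. Both values rest on 2 arrays per group, and no explanation was tested. Groups of 2 arrays were not searched for an outlying array.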

How the results depend on the processing

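Of 36 Rab results (a gene in a comparison), 21 kept their call under every alternative run, and 0 reversed. Across alternatives 45 values missed the threshold. The run without a minimum fold could not lose a call, and the run of every kept probe read the same probe per gene as the main fit. Leaving out an array outside a comparison moved only the estimate of its spread. Rab44 and Rab27a were not tested with probes well above background on all 8 arrays. Without a minimum fold, 28 Rab genes were higher and 3 lower in control cells (of 9993 genes called in either direction, 61.8% of all). The line labelled Tet2 knockdown had 29 higher and 7 lower (of 11017, 68.2% of all). The same rule gave 2 higher and 5 lower at 0 h (of 2179), 2 higher and 2 lower at 24 h (of 2236), and 5 higher and 3 lower for the difference between the inductions (of 2626). With normexp and quantile normalization, and with the authors' deposited table, 1 Rab gene was lower in control cells, 0 were lower at 0 h and 0 were higher for the difference; all genes called were 95 at 0 h, 163 at 24 h and 290 for the difference, against 281, 330 and 618. Median scaling left 0 Rab genes lower at 0 h and 0 higher for the difference (213 genes called). Quantile normalization of the processed signal gave 2 lower at 24 h and 0 higher for the difference. With no filter, 0 Rab genes were higher and 0 lower for the difference, with 187 genes called at 24 h and 121 for the difference. With probes well above background on all 8 arrays, 0 were lower at 24 h and 0 for the difference, as Rab44 is then not tested, and 158, 147 and 372 genes were called. The cause of the other shifts was not tested.

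Leaving out each array gave 11 to 13 Rab genes higher and 1 to 2 lower in control cells (4298 to 4416 genes called), and 14 to 16 higher and 2 to 3 lower in the line labelled Tet2 knockdown (5000 to 5259). It gave 0 to 1 higher and 1 to 1 lower at 0 h (242 to 302), 0 to 0 higher and 1 to 2 lower at 24 h (234 to 338), and 0 to 1 higher and 1 to 3 lower for the difference (411 to 647). With replicate number as a block, which is the slide, the counts were 12 and 2, 15 and 3, 0 and 1, 0 and 1, and 1 and 1, and the block changed no Rab call. Between 47.4% and 55.6% of spots were well above background, which limits Rab44, Rab27a, Rab33a and Rab19.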

Other observations

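The 14 Rab genes outside the test were Rab15, Rab20, Rab26, Rab27b, Rab30, Rab32, Rab34, Rab36, Rab38, Rab39b, Rab3b, Rab40b, Rab4a and Rab9b. Their probes were well above background on 0 to 2 of the 8 arrays. Rab38 and Rab32 were thus at 0 arrays while Rab7l1, grouped with them, was well above background on all 8. The same held within pairs of close relatives: Rab4a was at 0 arrays beside Rab4b, and Rab27b at 0 beside Rab27a. For Rab5a the second kept probe changed by 0.23 in control cells and -0.50 in the line labelled Tet2 knockdown, a difference of -0.72, where the probe used in the report gave -0.33.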
